A study of Mus musculus with 12 samples.

Results

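The cell cycle and replication genes described here are 52 mouse genes that dividing cells use to copy and separate their chromosomes, picked by symbol from a table of read counts for 55401 gene IDs. Each of the 52 symbols matched 1 row of the table, and all 52 passed the filter on low counts that left 12620 genes for testing. By textbook role they were grouped as 8 regulators of entry into S phase (G1/S regulators), 16 replication members and 28 G2/M members.

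A cell commits to division when D-type and E-type cyclins with their kinases release E2F transcription factors from the retinoblastoma protein. E2F then drives the genes that license origins, load the MCM helicase and supply nucleotides for S phase, while a later wave, driven by MYBL2 and FOXM1 with the MuvB core, brings up cyclin B, the mitotic kinases and the spindle proteins for G2 and mitosis. In bone marrow cultures, macrophage colony-stimulating factor (M-CSF) is both the survival and the growth signal, and precursors divide before they mature into macrophages with little division.

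The study profiled macrophages grown in culture from the bone marrow of C57BL6 background mice, in order to compare young with old animals. The young group held 6 libraries from animals of 8 weeks and the old group 6 libraries from animals of 12 months. Both groups had the same culture in medium with M-CSF, renewed at intervals and ended on day 7. The series title speaks of nanoparticles, but no library here was labelled as exposed to them. Libraries are named below by group and replicate number (young 6, old 2). The labels call them biological replicates without tying each to its own mouse. The p-values of old against young rest on how far the libraries differed within a group. Those of the correlations come from shuffling libraries across both groups, except where resamples within age groups are named.

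Assigned counts per library ranged from 22150081 to 25169045 in young and from 19345587 to 22356812 in old. All 8 macrophage markers passed the low-count filter, with a summed level of 27186 to 45048 CPM (read counts scaled to the effective library size) in young and 32578 to 43697 CPM in old. Most of that sum was Lyz2, whose lowest level of all libraries was 20504 CPM, found in young 6. The other markers were far below Lyz2 in that library, from Mertk with 26.2 CPM and Fcgr1 with 108 CPM up to Cd68 with 2838 CPM. Adgre1, Csf1r, Mertk and Fcgr1 also had their lowest level of all libraries there. Cd68, Itgam and Cd14 did not, with Itgam at 168 CPM against 132 to 159 CPM in old. The summed level was lowest in young 6 in the young group and in old 2 in the old group. Those 2 libraries also held the highest cell cycle levels. Old against young for the members, and their correlations with Mki67, are therefore given below with and without them. Results for further gene lists and cell markers are over all 12 libraries alone. Of 13 progenitor markers 8 stayed below 1 CPM in every library. Cd34, a surface marker of blood progenitors, was at 59.7 CPM in young 6 and at 9.40 CPM in old 2. Other markers of that list differed from it, since Sox4 was lowest in its group in both libraries, at 2.10 and 3.44 CPM, and Kit was lowest of the old group in old 2, at 5.95 CPM. The erythroid marker Hbb-bs and the B cell markers Ebf1 and Pax5 were at 0 in every library. The summed B cell level was 2.34 to 3.76 CPM in young and 1.17 to 3.02 CPM in old. Of 10 neutrophil markers 7 passed the filter, with a summed level of 72.1 to 221 CPM in young and 125 to 233 CPM in old. The neutrophil sum was lowest of each group in young 6 and in old 2. Of the T and NK cell markers, Gzma was at 0 everywhere and the summed level was 0 in all young libraries and 21.2 CPM at most in old.

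The members varied far more between libraries than genes at large, and they did so together. In young 6, 51 of the 52 were at their highest level of all 12 libraries, and Cenpa, the centromeric histone H3 variant, was highest in old 2. Old 2 was the second highest library for 46 members, and old 3 the third highest for 39. At the other end, old 4 was among the 4 lowest libraries for 48 members, old 5 for 42 and old 6 for 41. The share of all CPM held by the members ran from 0.127% in old 4 to 0.636% in young 6, with 0.405% in old 2 and 0.279% in old 3. In these bulk samples, fewer dividing cells and less of these RNAs per cell cannot be told apart.

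Mki67, which encodes the proliferation antigen Ki-67 (ENSMUSG00000031004, chr7:135689784-135716361 on the minus strand, GRCm38), shows the pattern. Its level was 58.7, 163, 92.8, 65.6, 52.5 and 400 CPM in young 1 to 6, and 49.3, 282, 178, 33.9, 48.8 and 36.0 CPM in old 1 to 6. Young 6, old 2, old 3 and young 2 were high and the groups overlapped. The level was 139 ± 134 CPM in young and 105 ± 103 CPM in old (mean ± SD, n = 6 each), so the SD was about as large as the mean.

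Over the 52 members the ratio of the highest to the lowest library had a median of 7.96, against 1.73 over all 12620 genes tested. The SD of log2 CPM over the 12 libraries had a median of 0.89 for the members and 0.23 for all genes tested, and 44 of the 52 members lay above the 90th percentile of all genes, which was 0.60 (log2 CPM here adds a prior count of 2). The widest span was that of Birc5, a subunit of the chromosomal passenger complex, at 14.9-fold, and the narrowest that of E2f1 at 2.10-fold.

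**Figure D1:**
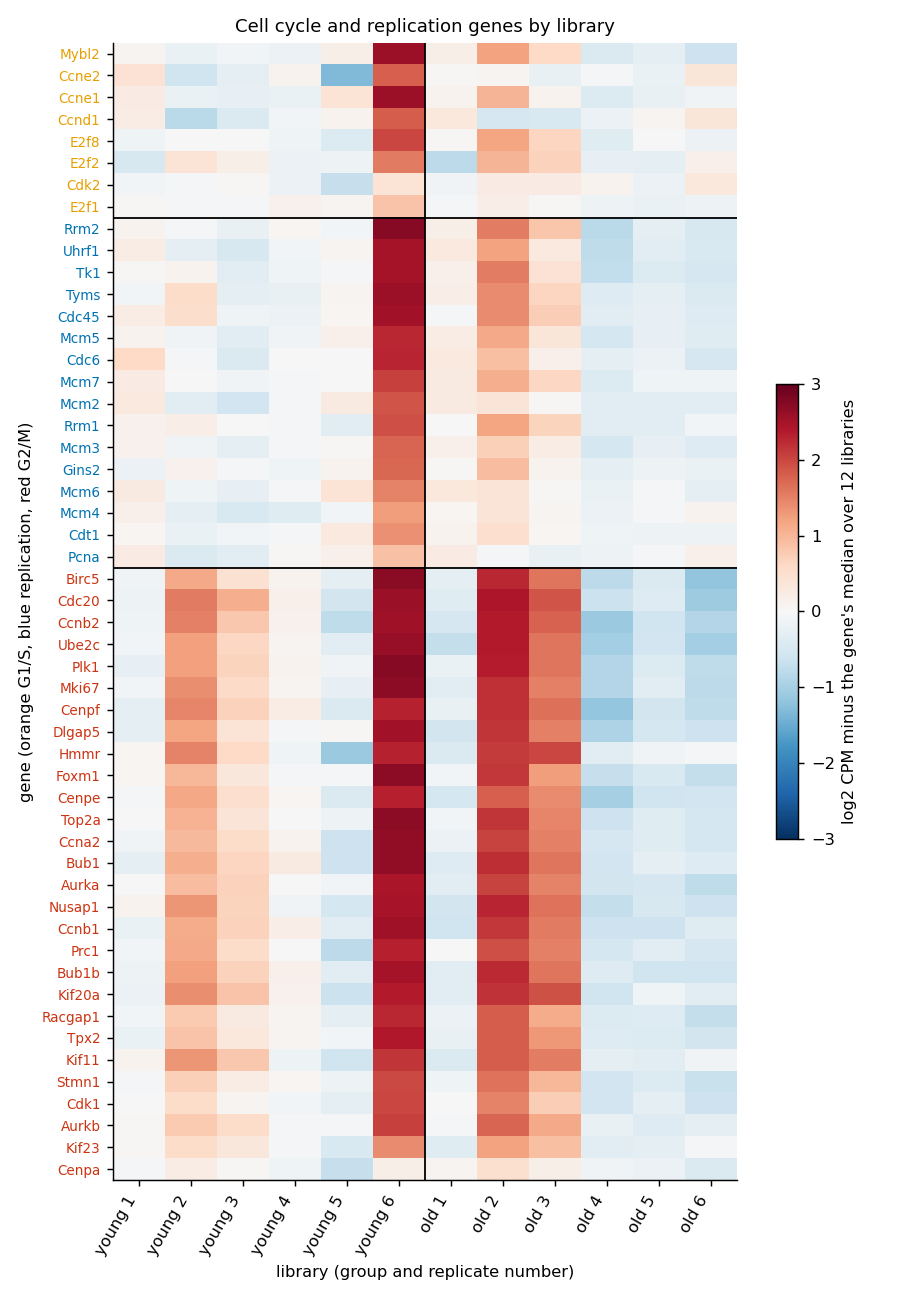
Level of each member in each library, as log2 CPM minus the gene's own median over the 12 libraries, with genes in rows by phase and libraries in columns. Young 6, old 2 and old 3 stand out in red across most rows, and young 2 and young 3 mainly in the G2/M rows.

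The phases did not move in step in every library. Young 6 led for all 8 G1/S regulators, all 16 replication members and 27 of the 28 G2/M members. Old 2, old 3 and young 2 were, with young 6, the 4 highest libraries for all 28 G2/M members, and young 3 was among the 5 highest for 27 of them. The replication members had another order below young 6 and old 2. Young 2 was above young 1 for 28 of 28 G2/M members and for 5 of 16 replication members, and young 3 was above young 1 for 28 of 28 and for 1 of 16. Old 1 was among the 4 highest libraries for 11 of 16 replication members and among the 4 lowest for 15 of 28 G2/M members.

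Against the median of the other 5 young libraries, young 6 was at 5.10 times in the median G2/M member, 4.01 times in the median replication member and 3.99 times in the median G1/S regulator. Old 2 against the other 5 old libraries showed a steeper grade, with 5.76 times for G2/M, 2.22 times for replication and 1.72 times for G1/S. Young 2 over young 1 had a median ratio of 2.34 for G2/M, 0.85 for replication and 0.88 for G1/S. Old 3 over old 1 had 3.63, 1.05 and 1.17 in the same order. Outside young 6, the high libraries stood out more in G2/M than in replication members.

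The mean log2 CPM of the G2/M members minus that of the replication members gives this contrast per library. It was -0.81, 0.54, 0.24, -0.43, -1.03 and -0.23 in young 1 to 6, and -1.03, 0.49, 0.54, -0.79, -0.76 and -0.89 in old 1 to 6. The 4 positive values were those of young 2, young 3, old 2 and old 3, and the groups overlapped over nearly their whole range. Young 6, with the highest mean in either phase (6.82 for replication and 6.59 for G2/M), had a difference between the high and the low libraries.

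**Figure D2:**
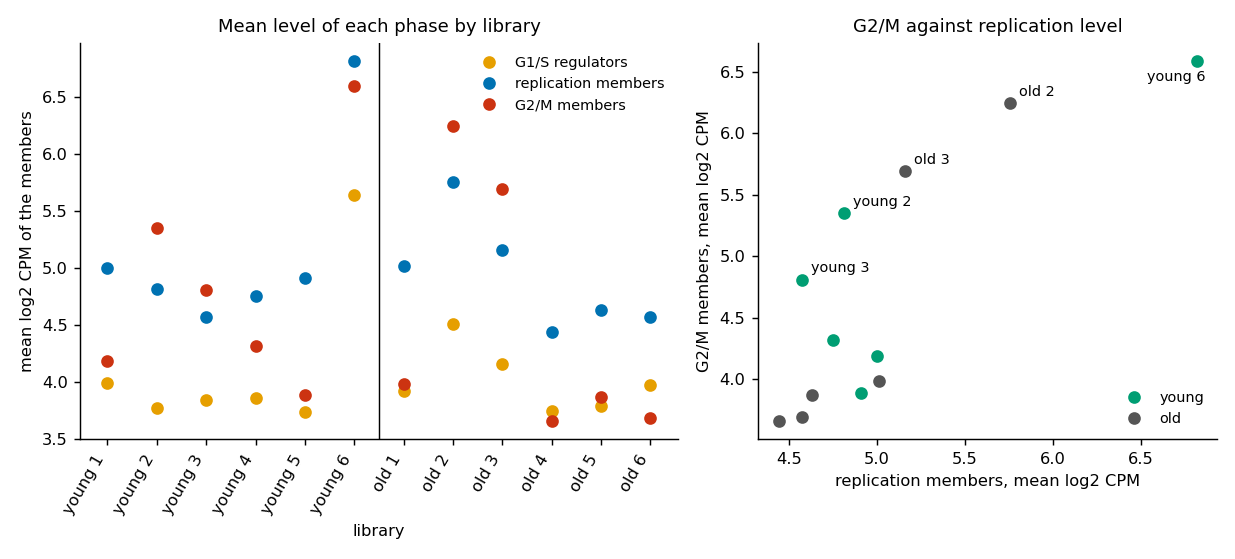
Left, mean log2 CPM of the 8 G1/S regulators, 16 replication members and 28 G2/M members in each of the 12 libraries; right, the G2/M mean against the replication mean, 1 point per library. Young 2 and young 3 lie above young 1, young 4 and young 5 on the G2/M axis at replication means between 4.57 and 5.00, and young 6 lies far out on both axes.

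The promoters of the members were searched for the elements that textbooks tie to each phase. RefSeq windows of GRCm38.p6, from 250 bases before to 50 after a start, were on hand for 41 of the 52 members. Ccna2, Ccne2, Ccnd1, Aurkb, Mcm4, Gins2, Kif20a, Tpx2, Stmn1, Foxm1 and Dlgap5 were not searched. The motifs, on either strand, were the cell cycle genes homology region CHR (TTTGAA), the NF-Y box CCAAT, and an E2F core (TTNNCGC with C or G at each N). Hits of the E2F core on opposite strands can overlap each other.

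The CHR letters were in windows of 16 of 21 G2/M members, 2 of 14 replication members and 2 of 6 G1/S regulators, against 20.2% of the 27025 genes of the table. Within 50 bases of the start they were found for 15 of 21 G2/M members, 1 of 14 replication members and 2 of 6 G1/S regulators, against 5.72% of all genes. CCAAT was in 19 of 21, 10 of 14 and 3 of 6 in that order, against 41.1%, and all 16 G2/M members with CHR also held CCAAT, a pair found in 8.97% of all genes. The E2F core had the opposite grade, with 4 of 21 G2/M members, 9 of 14 replication members and 3 of 6 G1/S regulators, against 10.9%. A match describes these letters in this window and is no measure of binding.

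The promoters of 5 G2/M members with CHR letters upstream of the start are shown, as 170 bases that end 1 base before the start, with the CHR letters (TTTGAA, which reads TTCAAA where the motif is on the other strand) in capitals. They belong to Cdc20 (chr4:118437344-118437513 on the minus strand), Top2a (chr11:99024190-99024359 on the minus strand), Ube2c (chr2:164769759-164769928 on the plus strand), Cdk1 (chr10:69352913-69353082 on the minus strand) and Kif11 (chr19:37376212-37376381 on the plus strand).
Cdc20: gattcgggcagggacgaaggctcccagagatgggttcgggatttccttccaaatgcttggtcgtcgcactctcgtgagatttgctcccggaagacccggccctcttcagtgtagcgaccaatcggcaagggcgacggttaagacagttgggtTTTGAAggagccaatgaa
Top2a: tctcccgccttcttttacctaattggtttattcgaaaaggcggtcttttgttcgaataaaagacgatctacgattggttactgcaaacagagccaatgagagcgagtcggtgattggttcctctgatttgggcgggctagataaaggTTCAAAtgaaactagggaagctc
Ube2c: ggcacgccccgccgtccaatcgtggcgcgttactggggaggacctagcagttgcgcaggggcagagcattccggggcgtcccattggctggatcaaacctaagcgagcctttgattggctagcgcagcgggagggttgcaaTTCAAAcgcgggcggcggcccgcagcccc
Cdk1: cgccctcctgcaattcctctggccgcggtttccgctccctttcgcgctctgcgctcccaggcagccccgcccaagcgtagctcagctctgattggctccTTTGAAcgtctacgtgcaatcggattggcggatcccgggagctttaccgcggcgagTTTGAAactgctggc
Kif11: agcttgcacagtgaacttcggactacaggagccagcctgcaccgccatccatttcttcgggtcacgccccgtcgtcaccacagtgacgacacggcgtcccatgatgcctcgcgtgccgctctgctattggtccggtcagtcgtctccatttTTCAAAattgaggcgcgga
The capitals begin at -18 in Cdc20, -23 in Top2a, -29 in Ube2c and -19 in Kif11, where -1 is the base before the start, and at -71 and -15 in Cdk1.

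The promoters of 3 replication members with E2F core letters are shown in the same way, with those letters in capitals. They belong to Mcm5 (chr8:75109339-75109508 on the plus strand), Mcm6 (chr1:128359706-128359875 on the minus strand) and Rrm1 (chr7:102441525-102441694 on the plus strand).
Mcm5: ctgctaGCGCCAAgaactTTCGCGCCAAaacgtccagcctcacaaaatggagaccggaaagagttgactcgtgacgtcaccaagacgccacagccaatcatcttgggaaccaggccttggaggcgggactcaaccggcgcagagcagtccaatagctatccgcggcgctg
Mcm6: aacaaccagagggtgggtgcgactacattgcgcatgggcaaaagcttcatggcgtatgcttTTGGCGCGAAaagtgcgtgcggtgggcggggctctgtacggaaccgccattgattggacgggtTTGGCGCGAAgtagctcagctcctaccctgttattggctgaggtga
Rrm1: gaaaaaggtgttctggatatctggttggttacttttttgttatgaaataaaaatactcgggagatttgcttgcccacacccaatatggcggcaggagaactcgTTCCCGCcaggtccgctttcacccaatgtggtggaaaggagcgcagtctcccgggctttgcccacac
Mcm5 and Mcm6 hold runs of capitals in which cores on opposite strands overlap, while Rrm1 holds a single core.

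Old against young was the comparison the study was built for. No member was called in either direction by edgeR's quasi-likelihood test at an adjusted p of 0.05, where 0.0158% of all genes tested were called higher and 0% lower in old. At an unadjusted p below 0.05 the count was 0 of 52, against 5.47% of all genes, and DESeq2 and limma voom called 0 of 52 as well. Levels of the groups overlapped for all 52 members, while 0.206% of all genes had no overlap. The lowest adjusted p of any member was that of E2f1 (edgeR adjusted p = 0.77).

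The point estimates leaned to the same side. Of the 52 log2 fold changes of old over young, 50 were negative and 2 positive, with a median of -0.30 against -0.01 over all genes tested, of which 47.5% were positive. The median was -0.31 for the G1/S regulators, -0.44 for the replication members and -0.26 for the G2/M members. The errors were large beside these values. The standard error had a median of 0.55 for members and 0.13 for all genes, and the change was smaller than its own standard error for 40 of 52 members, with 3 of 8 G1/S regulators, 9 of 16 replication members and all 28 G2/M members among them.

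Young 6 set the sign. Without it, 50 of the 52 log2 fold changes were positive, with a median of 0.29, and 2 members, Mcm4 (0.27) and Cdk2 (0.28), had an unadjusted p below 0.05, both with an edgeR adjusted p of 0.775, while 5.80% of all genes had such a p. Without old 2 the median was -0.76 and the lowest adjusted p 0.41. With young 6 and old 2 both left out, a choice made after their levels were seen, the median was -0.08, with 12 positive and 40 negative changes and a lowest adjusted p of 0.43.

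**Figure D3:**
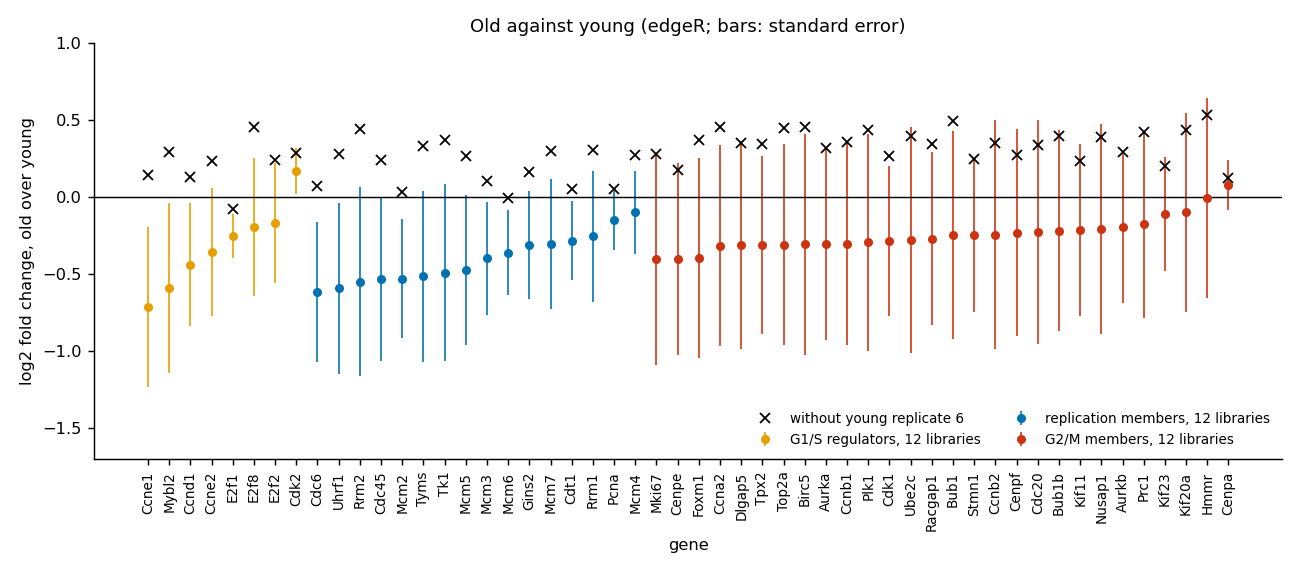
Log2 fold change of old over young for each member from edgeR, with bars of 1 standard error, over all 12 libraries (dots, by phase) and without young 6 (crosses). Dots lie below 0 for 50 of 52 members and crosses above 0 for 50 of 52, and no member passed the test in either case.

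The G1 cyclins and their kinase act at the commitment to S phase, and they did not share a common order of libraries. Ccnd1, the D-type cyclin that M-CSF signalling induces (ENSMUSG00000070348, chr7:144929931-144939925 on the minus strand), lay between 34.1 and 210 CPM in young (median 60.5) and between 42 and 76.8 CPM in old (median 58.4). Its highest library was young 6, and its 4 lowest were young 2, old 2, old 3 and young 3, the other libraries with high G2/M levels. The log2 fold change was -0.44 (SE 0.40). Ccne1, cyclin E1, which activates CDK2 at the start of S phase, ranged from 6.14 to 43.3 CPM in young (median 7.52) and from 5.47 to 14.9 CPM in old (median 7.34). Young 6 and old 2 stood far above the rest of their groups, which overlapped closely, and the log2 fold change was -0.71 (SE 0.52), the most negative of all members.

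Ccne2, its close relative, ranged from 1.21 to 10.4 CPM in young (median 2.84) and from 2.58 to 3.89 CPM in old (median 3.01), with a log2 fold change of -0.36 (SE 0.41). The old libraries all lay inside the young range. The ratio of Ccne1 to Ccne2 counts ran from 1.76 in old 6 to 8.07 in young 5, so these cyclins did not keep a fixed proportion. Cdk2, the kinase they activate, was among the steadiest members, with 17.4 to 37.5 CPM in young (median 27.2) and 24.9 to 35.1 CPM in old (median 32.0). Its log2 fold change of 0.17 (SE 0.15) was, with that of Cenpa, positive. The edgeR adjusted p of these 4 genes lay between 0.773 and 0.842.

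E2f1, an activator of S phase genes, had the narrowest range of all members, with 49.4 to 93.5 CPM in young (median 53.7) and 44.4 to 58.7 CPM in old (median 48.3). Apart from young 6 the 2 groups shared nearly the same levels, and its log2 fold change was -0.25 (SE 0.15). E2f2, another activator, moved more, from 19.9 to 81.7 CPM in young (median 28.4) and from 16.1 to 56.7 CPM in old (median 27.2), with a log2 fold change of -0.17 (SE 0.39). Young 6, old 2 and old 3 were its highest libraries, and the ratio of E2f1 to E2f2 counts was lowest there, at 1.14, 1.04 and 1.17, against 3.11 in old 1.

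Mybl2, the MYB protein that binds MuvB at the turn from S phase to G2, ranged from 4.73 to 32.0 CPM in young (median 5.42) and from 3.52 to 12.5 CPM in old (median 5.27). Young 6 stood apart and the log2 fold change was -0.59 (SE 0.55). Foxm1, the forkhead factor that follows it on G2/M promoters, ranged from 19.5 to 131 CPM in young (median 23.5) and from 12.3 to 88.0 CPM in old (median 17), with a log2 fold change of -0.40 (SE 0.65). The ratio of Foxm1 to Mybl2 counts was highest in young 2 (8.54), old 2 (7.06), old 3 (5.90) and young 3 (5.09) and stayed between 3.14 and 4.13 elsewhere. The libraries with the highest ratios were also those whose G2/M mean lay above their replication mean. The edgeR adjusted p was 0.77 for E2f1, 0.924 for E2f2, 0.812 for Mybl2 and 0.888 for Foxm1.

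Origins are licensed when CDC6 and CDT1 bring the MCM helicase to DNA. Cdc6 ranged from 3.94 to 25.9 CPM in young (median 5.31) and from 3.73 to 9.86 CPM in old (median 5.30), with a log2 fold change of -0.62 (SE 0.46). Cdt1 ranged from 40.3 to 120 CPM in young (median 46.3) and from 41.7 to 65.8 CPM in old (median 45.4), with a log2 fold change of -0.28 (SE 0.26). For either gene young 6 was the highest library and old 2 the next, and the other 10 libraries of both groups overlapped. The ratio of Cdt1 to Cdc6 counts was lowest in young 6 (4.61) and reached 11.2 in old 6.

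The MCM proteins form the ring that unwinds DNA at the fork. Mcm5 was at 52.6, 45.2, 39.0, 45.2, 54.0 and 236 CPM in young 1 to 6, and at 56.9, 107, 62.8, 33.6, 41.4 and 37.7 CPM in old 1 to 6. Only young 6 and old 2 stood clear of the rest, and the log2 fold change was -0.48 (SE 0.49). Mcm2 ranged from 20.2 to 111 CPM in young (median 32.5) and from 23.5 to 39.4 CPM in old (median 27.5), with a log2 fold change of -0.53 (SE 0.39). All 6 old values lay inside the young range. The edgeR adjusted p of Cdc6, Cdt1, Mcm2 and Mcm5 lay between 0.773 and 0.824.

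Since the ring holds its 6 subunits in equal number, their levels can be set side by side per length, as CPM per kilobase of merged exon (RPKM). Median RPKM over the 12 libraries was 20.5 for Mcm6, 16.1 for Mcm3, 12.2 for Mcm5, 7.79 for Mcm7, 7.51 for Mcm4 and 4.31 for Mcm2. By this measure the mRNA levels of the 6 genes were far from equal. The lowest place of Mcm2 rests on its merged exon length, since its median of 30.0 CPM was above the 27.0 CPM of Mcm4. Proportions of the 6 genes varied less between libraries than their levels. The SD over libraries of a subunit's log2 level was 0.45 to 0.78. That of its log2 level minus the mean log2 level of the 6 in the same library was 0.08 to 0.23. The proportions were not fixed, since the ratio of Mcm5 to Mcm2 counts, for example, ran from 1.43 to 2.71. In young 6 the level over the median of the other young libraries was 5.21 times for Mcm5 and 2.90 times for Mcm6.

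At the fork, Pcna, the sliding clamp of the replicative polymerases (ENSMUSG00000027342, chr2:132249162-132253314 on the minus strand), had the highest level per length of all members, with a median of 109 RPKM. It was at 312, 193, 207, 267, 292 and 481 CPM in young 1 to 6, and at 313, 258, 224, 235, 254 and 294 CPM in old 1 to 6. Young 6 was again the highest, but old 2 was in the middle, and the lowest were young 2, young 3 and old 3. Its log2 fold change was -0.15 (SE 0.19). Uhrf1, which carries DNA methylation through replication, ranged from 18.8 to 148 CPM in young (median 26.4) and from 15.4 to 60.6 CPM in old (median 26.4), with a log2 fold change of -0.59 (SE 0.55). Young 6 and old 2 led their groups, which overlapped.

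Ribonucleotide reductase makes deoxynucleotides from a large subunit, RRM1, and a small subunit, RRM2, whose supply limits S phase. Rrm2 was at 17, 15.3, 13.6, 16.6, 15.2 and 107 CPM in young 1 to 6, and at 17.9, 46.2, 28.3, 9.07, 13.1 and 11.5 CPM in old 1 to 6. The other 5 young libraries were nearly level and young 6 was 6.97 times their median. Its log2 fold change was -0.55 (SE 0.62). Rrm1 ranged less, from 44.2 to 217 CPM in young (median 59.3) and from 44.4 to 129 CPM in old (median 54.8), with a log2 fold change of -0.26 (SE 0.43). The ratio of Rrm2 to Rrm1 counts ran from 0.204 in old 4 to 0.491 in young 6. Tyms, thymidylate synthase, ranged from 6.97 to 49.7 CPM in young (median 8.45) and from 6.22 to 22.5 CPM in old (median 8.33), with a log2 fold change of -0.52 (SE 0.55). Young 6 and old 2 were its highest libraries and the groups overlapped. The edgeR adjusted p was 0.854 for Pcna and between 0.812 and 0.889 for Uhrf1, Rrm1, Rrm2 and Tyms.

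**Figure D4:**
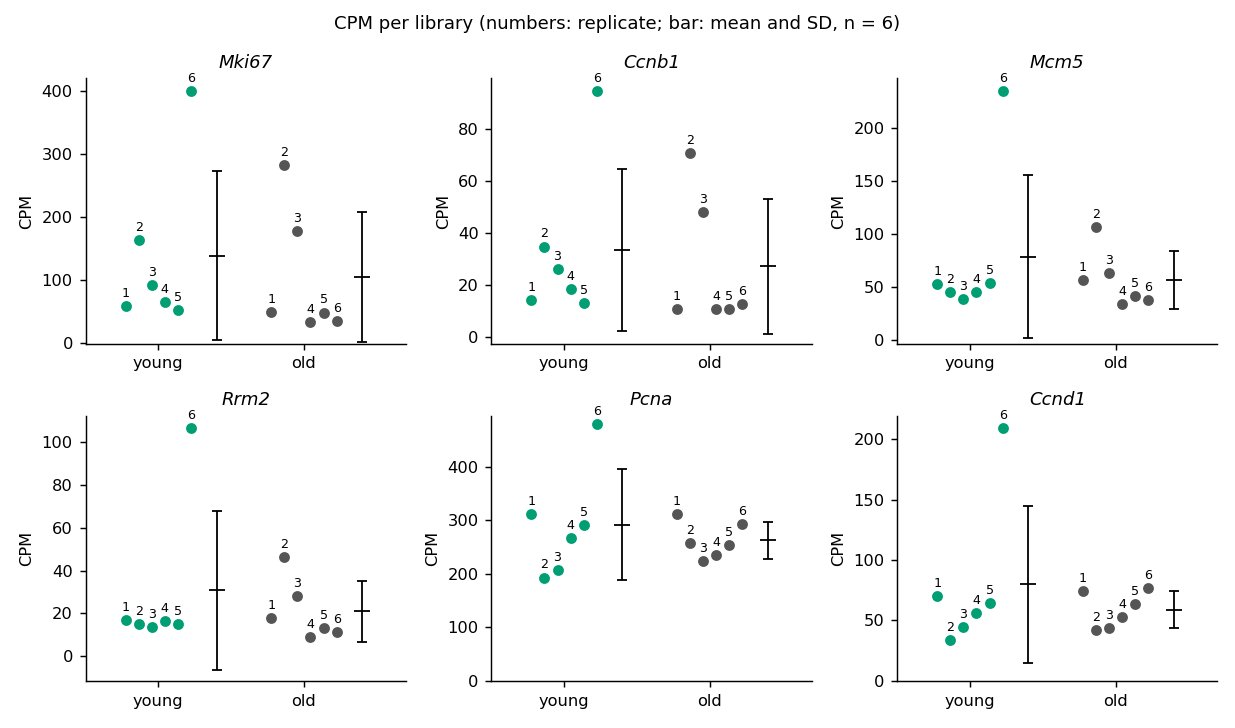
CPM of 6 members in each library, with the replicate number at each point and the mean with SD (n = 6) beside each group. Mki67 and Ccnb1 were high in young 6, old 2, old 3 and young 2, Mcm5 and Rrm2 mainly in young 6 and old 2, and Pcna and Ccnd1 in young 6, with their lowest values in young 2 (193 and 34.1 CPM).

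Cyclin A2 and the B-type cyclins drive CDK1 through G2 into mitosis. Ccnb1 was at 14, 34.8, 26.0, 18.6, 12.9 and 94.8 CPM in young 1 to 6, and at 10.7, 70.6, 47.9, 10.6, 10.6 and 12.6 CPM in old 1 to 6. The 3 highest libraries were young 6, old 2 and old 3, followed by young 2 and young 3, and the groups overlapped. Its log2 fold change was -0.30 (SE 0.66). Ccnb2 ranged from 11.7 to 115 CPM in young (median 28.1) and from 9.12 to 103 CPM in old (median 13.4), with a log2 fold change of -0.25 (SE 0.74). Here the young median was above the old one while the highest values of the groups were close. Ccna2 ranged from 11.3 to 110 CPM in young (median 22.0) and from 12.0 to 70.8 CPM in old (median 14.4), with a log2 fold change of -0.32 (SE 0.65).

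Cdk1, their kinase, whose promoter holds the CHR letters at 2 places, ranged from 30.6 to 152 CPM in young (median 39.0) and from 24.6 to 106 CPM in old (median 34.2), with a log2 fold change of -0.29 (SE 0.49). Young 6 and old 2 stood above the rest. Relative to Cdk2, which spanned less than most members, Cdk1 counts were 0.70 in old 6 and 0.829 in old 4 but 4.06 in young 6 and 3.18 in old 2. The edgeR adjusted p of Ccna2, Ccnb1, Ccnb2 and Cdk1 lay between 0.891 and 0.942.

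Among the mitotic kinases, Plk1, which acts from mitotic entry to cytokinesis, ranged from 13.1 to 103 CPM in young (median 20.5) and from 8.42 to 78.9 CPM in old (median 12.5), with a log2 fold change of -0.30 (SE 0.70). It kept the library order of Mki67 almost exactly. Aurkb, the kinase of the chromosomal passenger complex, ranged from 10.2 to 44.6 CPM in young (median 13.3) and from 8.17 to 36.1 CPM in old (median 9.77), with a log2 fold change of -0.20 (SE 0.49). Birc5 (survivin), a partner of Aurora B in that complex, spanned the most, from 16.5 to 133 CPM in young (median 24.8) and from 8.91 to 97.5 CPM in old (median 15.9), with a log2 fold change of -0.31 (SE 0.71). The groups overlapped for all 3. The ratio of Aurkb to Birc5 counts was lowest where both were high, at 0.335 in young 6 and 0.371 in old 2, and reached 0.977 in old 6.

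Cdc20, the activator of the anaphase promoting complex, whose promoter is printed above, ranged from 9.52 to 83.8 CPM in young (median 22.7) and from 6.63 to 75.3 CPM in old (median 10.7), with a log2 fold change of -0.23 (SE 0.73). Its range of 12.6-fold was among the widest. The spindle checkpoint kinases Bub1 and Bub1b had median levels of 1.99 and 4.68 RPKM, and their ratio varied less than either level. The SD of log2 CPM was 1.15 for Bub1 and 1.13 for Bub1b, and that of the log2 ratio of the pair was 0.18. Top2a, the topoisomerase that untangles sister chromatids, had a ratio to Mki67 counts between 0.921 and 1.41. Top2a ranged from 66.2 to 472 CPM in young (median 85.2) and from 47.5 to 325 CPM in old (median 63.0), and for Top2a and Mki67 the log2 fold changes were -0.31 (SE 0.65) and -0.41 (SE 0.68).

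Of the 10 spindle motors and microtubule regulators, Stmn1, which takes apart microtubules, had the highest level per length, at a median of 36.3 RPKM, behind Pcna alone among the members. It ranged from 62.6 to 274 CPM in young (median 76.8) and from 43.8 to 217 CPM in old (median 58.3), with a log2 fold change of -0.25 (SE 0.50). Young 6, old 2, old 3 and young 2 were its highest libraries. Hmmr, a spindle-associated hyaluronan receptor, had the lowest median of all members, at 0.72 RPKM, and ranged from 1.82 to 19.5 CPM in young (median 4.98) and from 2.90 to 16.7 CPM in old (median 3.67). Its log2 fold change was -0.01 (SE 0.65), and its sign changed with the scaling (6.6e-04 with library size alone). The other 8 of this group, with Kif11, Kif20a and Kif23 among them, had log2 fold changes of their own between -0.31 and -0.10. The edgeR adjusted p was 0.997 for Hmmr and between 0.891 and 0.946 for Mki67, Top2a, Plk1, Aurkb, Birc5, Cdc20 and Stmn1.

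How closely the members followed Mki67 was measured by Pearson's r of log2 CPM across the 12 libraries, with a permutation p from 100000 resamples adjusted over 12619 genes. Of the other 51 members, 44 had a positive correlation that passed an adjusted p of 0.05, against 15% of all genes, and 0 had a negative one, against 13.2%. The median r of the members was 0.93. All 27 G2/M members other than Mki67 passed, with Plk1 (r = 0.996, Spearman's rho = 0.98, permutation p = 1e-05, the smallest that the resamples can give, and adjusted p = 3.8e-04) and Ube2c (r = 0.995, rho = 0.99, same p) at the top and Cenpa (r = 0.72, rho = 0.75, permutation p = 0.0070, adjusted p = 0.030) at the bottom. The members that did not pass were Ccnd1, Pcna, Ccne2, Cdk2, Mcm4, Mcm6 and Mcm2.

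Young 6 and old 2 were the 2 libraries farthest from the median of Mki67. Over the other 10 libraries, 25 of the 51 members had a positive correlation that passed, against 2.38% of the 12619 genes. All 25 were G2/M members, and Hmmr and Cenpa were the G2/M members that did not pass. The r of Plk1 was 0.99, that of Ccnb1 0.96 and that of Top2a 0.98 without these libraries, nearly as high as with them. For Cdt1 r went from 0.69 (rho = 0.48, permutation p = 0.0084, adjusted p = 0.034) to -0.04, for Ccne1 from 0.72 (rho = 0.57, permutation p = 0.0052, adjusted p = 0.024) to 0.07, and for Mcm5 from 0.81 (rho = 0.74, permutation p = 7.5e-04, adjusted p = 0.0064) to 0.47. For these 3 genes the relation with Mki67 did not pass over the 10 libraries, which also span a narrower range of Mki67, while by rank over all 12 that of Mcm5 passed (adjusted permutation p = 0.044).

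For Ccnd1 and Pcna r was negative over the other 10 libraries, without passing the threshold. For Ccnd1, r was 0.13 over 12 libraries (rho = -0.32, permutation p = 0.70, adjusted p = 0.79) and -0.81 over 10 (permutation p = 0.0044, adjusted p = 0.079). Without young 6 alone it was -0.81 with an adjusted permutation p of 0.031, in a setting where 6.17% of all genes passed a negative correlation. For Pcna, r was 0.17 (rho = -0.08, permutation p = 0.59, adjusted p = 0.71) and then -0.67 (permutation p = 0.035, adjusted p = 0.23). The count of Ccnd1 per count of Mki67 spanned 0.149 in old 2 to 2.13 in old 6. After removal of the group means, with resamples drawn within age groups, 41 of 51 members passed a positive correlation, against 12.9% of all genes. By Spearman's rho over all 12 libraries 40 passed, against 9.92%.

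**Figure D5:**
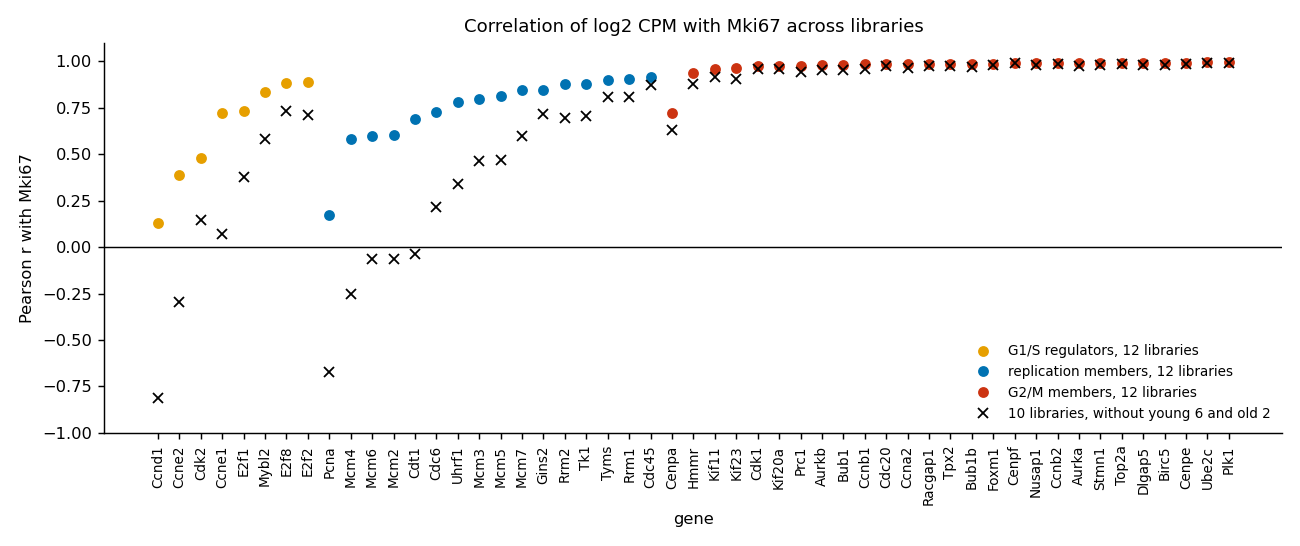
Pearson's r of each member's log2 CPM with that of Mki67, over 12 libraries (dots, by phase) and over the 10 libraries left without young 6 and old 2 (crosses). Most G2/M members stay near 1 in either case, with Cenpa (0.72 and 0.63) and Hmmr (0.93 and 0.88) the lowest of them. Ccnd1 moves from 0.13 to -0.81 and Pcna from 0.17 to -0.67.

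Other genes of the same pathways, from lists drawn up beside the members, behaved alike. Of 42 further replication genes (polymerases, primase, RFC, RPA, origin and fork proteins) 0 were called by edgeR in either direction, 38 had a negative log2 fold change and the median was -0.30. Of them 32 passed the positive correlation with Mki67, against 15% of all genes. Of 56 further mitosis genes (kinetochore, kinesins, condensin, cohesin protection and cytokinesis) 0 were called and 53 were negative with a median of -0.23. The correlation was passed by 53 of them, against the same 15%. The median ratio of highest to lowest library was 3.97 for the former and 8.61 for the latter, beside 5.53 and 9.48 for the replication and G2/M members. The subunits of the origin recognition complex differed from each other. Orc1 and Orc6 had ranges of 6.65-fold and 4.84-fold and passed the positive correlation with Mki67 (r = 0.82 and 0.77). Orc2, Orc3, Orc4 and Orc5 did not pass it and moved less, with ranges from 1.16-fold in Orc3 to 1.86-fold in Orc2.

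Further G1 cyclins, kinases, E2F partners and DREAM subunits were steadier in the median than the members, with exceptions. Of these 21 genes, 0 were called in old against young and 11 were positive with a median log2 fold change of 0.02. The median range was 2.19-fold, and the widest were 12.9-fold in E2f7, 5.04-fold in Myc and 4.29-fold in Ccnd2. Of these 21, 5 (Ccnd3, Cdk4, E2f6, E2f7 and Tfdp2) passed the positive correlation with Mki67, against 15% of all genes. Rb1, the retinoblastoma protein that holds E2F in check, was the only one of the 21 to pass a negative correlation (r = -0.75, adjusted permutation p = 0.0245). Of all genes 13.2% passed a negative correlation. Of 8 CDK inhibitors, 0 were called in old against young and 5 passed a positive correlation, against 15% of all genes. Among the 5 were Cdkn2c (r = 0.94, adjusted permutation p = 7.8e-04), Cdkn2d (r = 0.94) and Cdkn3 (r = 0.98). Cdkn1a (r = 0.68) and Cdkn2a (r = 0.68) passed closer to the threshold, with adjusted permutation p of 0.041 and 0.047. Cdkn2a had few counts, at 0.78 to 2.35 CPM in young and 0.10 to 2.51 CPM in old. Cdkn1a, the p53 target p21, ranged from 203 to 389 CPM in young and from 171 to 244 CPM in old, with its highest level of each group in young 6 and old 2. Cdkn1b (r = -0.49), Cdkn1c (r = -0.48) and Cdkn2b (r = -0.30) had a negative r that did not pass, with adjusted permutation p of 0.19, 0.22 and 0.48. Cdkn1b, which encodes p27, was at its group minimum in young 6 (33.6 CPM) and in old 2 (52.9 CPM).

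Markers of cell identity also differed between these libraries. Of 8 macrophage markers 5 passed a negative correlation with Mki67, against 13.2% of all genes, and 0 a positive one, against 15%. The median r of the 8 was -0.75. Itgam (r = 0.21), Cd68 (r = -0.16) and Cd14 (r = -0.50) did not pass, with adjusted permutation p of 0.63, 0.73 and 0.20. Adgre1, which encodes F4/80, had r = -0.94 (adjusted permutation p = 6.2e-04) and was at 745 CPM in young 6 and up to 1371 CPM in the other young libraries. Fcgr1, a receptor for IgG, had r = -0.85 (adjusted permutation p = 0.0038) and was at 108 CPM in young 6 against up to 860 CPM. Among 4 progenitor markers with enough counts to test, Cd34 passed a positive correlation (r = 0.90, adjusted permutation p = 0.0019), at 59.7 CPM in young 6, 9.40 CPM in old 2 and 0.18 CPM at its lowest in old. The other 3 had a negative r that did not pass, with Sox4 at -0.67, Kit at -0.56 and Ly6c2 at -0.25, and the median r of the 4 was -0.40. The progenitor enzymes Mpo and Elane stayed below 1 CPM in every library, and the summed progenitor level was 13.3 to 74.6 CPM in young and 17.2 to 55.5 CPM in old. What part these shifts have in the levels of the cycle genes was not tested.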

How the data were processed

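Read counts per gene were deposited by the authors for the 12 libraries and are whole and not normalised. Per the file headers, featureCounts 1.6.0 made them with gene models of Ensembl release 100 for GRCm38. Per the labels' protocols, libraries came from a TruSeq RNA v2 kit. FastQC and STAR are named without versions in the submitters' processing notes. The kit keeps no strand, so reads of a gene and of an overlapping antisense gene cannot be told apart. The header's command does not ask for pairs to be counted as fragments, and 56.9% of the members' counts were even (63.3% of the 109 under 200), so counts may hold both mates of a fragment. The header's merged exon length per gene, also deposited, gave RPKM.

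Of 55401 gene IDs 55141 had a symbol in a reference table, and the number of sample columns left unused was 0. CPM used TMM factors from edgeR 4.0.16 (R 4.3.3). Old against young was fitted over all 12 libraries with edgeR's quasi-likelihood test (robust, group alone), filtered by edgeR's low-count rule to 12620 genes with 99.9% of counts, with Benjamini-Hochberg adjustment, two-sided. The common coefficient of biological variation was 21.7%. Permutation correlations used Python 3.11.15 and NumPy 2.4.6. These scripts were tested on simulated data. Full values are given for 28 members set by role and for those of extreme value, which added Hmmr. Members and lists were chosen with earlier results of these data known. Alternatives were other scalings, filters, DESeq2 1.42.0, limma 3.58.1 voom, a replicate block and each library left out; leaving out young 6 and old 2 together was added after seeing the data.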

Additional observations from a re-analysis of the deposited data

Results flagged for a closer look

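In a group of 6, a library was singled out when its gap to the next was a larger share of the group's range on the log2 CPM scale than Dixon's critical value for 6 libraries, which chance gives in about 1 of 20 groups. Of 68 groups looked at, 15 met this, and 14 of those were young 6 at the high end. In young 6 these were Ccne1 at 43.3 CPM, Cdk1 at 152, Cdt1 at 120, Mcm2 at 111, Mcm5 at 236, Rrm1 at 217, Rrm2 at 107, Tyms at 49.7, E2f1 at 93.5, Uhrf1 at 148 and Mybl2 at 32.0 CPM. The mean log2 CPM in young 6 was also far from the other young libraries for all members (6.52, next 4.94), for the G1/S regulators (5.64, next 3.99) and for the replication members (6.82, next 5.00). The remaining case was Ccne1 in old 2, at 14.9 CPM with the next old library at 7.87 CPM. The values share libraries and genes, so the cases are not independent. Of the G2/M members, only Cdk1 met the criterion in young 6 among those looked at, since young 2 and young 3 lay between.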

How the results depend on the processing

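No member was called in either direction under any of the 20 alternatives or with young 6 and old 2 left out. The number of all genes called, 2, was 4 with no low-count filter, 11 with DESeq2, 4 with the replicate block and 1 to 5 with a library left out. With a library left out, the median log2 fold change ran from -0.76 to 0.29 for all members, from -0.41 to 0.23 for G1/S regulators, from -0.60 to 0.25 for replication members and from -0.81 to 0.35 for G2/M members. It was positive only without young 6. The named members turned positive without that library except E2f1, which stayed negative (-0.30 to -0.08), and Cdk2, which stayed positive (0.07 to 0.28). Their ranges over libraries left out in turn were Mki67 -1.0 to 0.28, Top2a -0.86 to 0.45, Ccna2 -0.81 to 0.46, Ccnb1 -0.86 to 0.36, Ccnb2 -0.91 to 0.35, Ccne1 -0.97 to 0.14, Ccne2 -0.54 to 0.23, Ccnd1 -0.60 to 0.13, Cdk1 -0.69 to 0.27, Cdc20 -0.85 to 0.34, Cdc6 -0.83 to 0.072, Cdt1 -0.39 to 0.054, Aurkb -0.61 to 0.29, Plk1 -0.94 to 0.43, Birc5 -0.93 to 0.45, Mcm2 -0.67 to 0.028, Mcm5 -0.76 to 0.26, Pcna -0.25 to 0.049, Rrm1 -0.53 to 0.31, Rrm2 -0.94 to 0.44, Tyms -0.86 to 0.33, E2f2 -0.40 to 0.24, Uhrf1 -0.92 to 0.28, Stmn1 -0.68 to 0.25, Foxm1 -0.99 to 0.37, Mybl2 -0.89 to 0.29. Hmmr, near 0, ran from -0.40 to 0.53, and was positive with library size alone (6.6e-04) and with the replicate block (0.026). Without young 6 and old 2 together, Ccne2 (0.22), Ccnd1 (0.21), Pcna (0.057), Rrm1 (0.038), Rrm2 (0.044), E2f2 (0.0065) and Hmmr (0.14) were positive, and the phase medians were 0.10, -0.05 and -0.18 for G1/S, replication and G2/M. Correlated members, 44, were 37 to 45 with a library left out and 25 without the 2 farthest libraries, where fewer libraries were tested. Same-numbered libraries of the groups did not all go together (r of deviations -0.17 to 0.39, above 0.1 in 4 of 6 pairs, and 4 of 12 libraries closest to their own number). The labels name no pairing, and with the replicate block the median over members was -0.21. No alternative varied depth, and the standard errors hold counting error and spread between libraries together. Counts of both mates would overstate the number of molecules.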
